A study of Homo sapiens and Mus musculus with 18 samples.

Results

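The 7 genes described here, HOXB1, HOXD1, HOXA2, HOXB2, HOXA3, HOXB3 and HOXD3, belong to HOX paralog groups 1 to 3, and they were followed together with the mouse genes of the same names. They were chosen by symbol and paralog group, and are 7 of the 44910 genes in the human count table and 7 of the 29720 genes in the mouse count table. Each table holds 39 HOX genes. Transcripts were counted in 18 samples, 2 biological replicates for each of 9 groups. Replicates of a stage were collected in one experimental batch, so the spread between them may be smaller than that between separate experiments.

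Human samples came from the ESC line H9 in the naïve and in the primed state, from primed ESCs of the reporter line RUES2_GLR, and from RA-gastruloids made of RUES2_GLR cells at an early stage of 24 h and a late stage of 120 h. RA-gastruloids are aggregates of human ESCs that were exposed to the WNT agonist CHIR99021 and then to CHIR99021 with retinoic acid (RA) before aggregation, and that received RA again with Matrigel on a later day. Naïve H9 ESCs were grown on mouse embryonic fibroblast feeders that were depleted over passages. The mouse groups were naïve ESCs, primed EpiLCs, and early and late gastruloids, all from the line E14Tg2a. Mouse EpiLCs were made with activin A and bFGF. Mouse gastruloids were aggregates of naïve ESCs, not of EpiLCs. They received a pulse of CHIR99021 and no added RA, and the early stage was sampled as that pulse ended. The naïve H9 group and the RUES2_GLR groups therefore differ in cell line as well as in stage, and the human and mouse gastruloids differ in added RA as well as in species. Each aggregate is a mixture of cell types, and in such bulk samples fewer cells of a type and less RNA per cell cannot be told apart.

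HOX genes encode homeodomain transcription factors that lie in clusters and are switched on in the order in which they lie, with the genes of groups 1 to 3 among the earliest and reaching furthest towards the head. Groups 1 to 3 pattern the hindbrain, its neural crest and the upper neck, and they are classical direct targets of RA, which acts through nuclear receptors bound at the anterior end of the clusters. HOXB1 also maintains its own expression in part of the hindbrain by binding, with a PBX partner, to a short element just before its own start. PBX and MEIS proteins, the TALE cofactors, are DNA-binding partners of HOX proteins.

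On GRCh38, HOXB1 (ENSG00000120094), HOXB2 (ENSG00000173917) and HOXB3 (ENSG00000120093) lie on the minus strand of chromosome 17, from 48528526 to 48531011, from 48540894 to 48545109 and from 48548870 to 48604912. HOXA2 (ENSG00000105996) and HOXA3 (ENSG00000105997) lie on the minus strand of chromosome 7, from 27100354 to 27102686 and from 27106184 to 27152583. HOXD1 (ENSG00000128645) and HOXD3 (ENSG00000128652) lie on the plus strand of chromosome 2, from 176188668 to 176190907 and from 176136612 to 176173102. On GRCm39, Hoxb1, Hoxb2 and Hoxb3 lie on chromosome 11, Hoxa2 and Hoxa3 on chromosome 6, and Hoxd1 and Hoxd3 on chromosome 2.

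Because HOXB1 and HOXA2 carry a PBX-HOX motif directly before their starts, the 250 bases upstream are shown for both genes in human and mouse. The human windows are from RefSeq (GRCh38.p14), at chr17:48531012-48531261 on the minus strand for HOXB1 and chr7:27102684-27102933 on the minus strand for HOXA2. The mouse windows were read from GRCm39 before the GENCODE gene start, at chr11:96256328-96256577 on the plus strand for Hoxb1 and chr6:52141812-52142061 on the minus strand for Hoxa2. All are written 5′ to 3′ along the gene, and capitals mark the letters TGATNNAT, the PBX-HOX motif, on either strand.
HOXB1: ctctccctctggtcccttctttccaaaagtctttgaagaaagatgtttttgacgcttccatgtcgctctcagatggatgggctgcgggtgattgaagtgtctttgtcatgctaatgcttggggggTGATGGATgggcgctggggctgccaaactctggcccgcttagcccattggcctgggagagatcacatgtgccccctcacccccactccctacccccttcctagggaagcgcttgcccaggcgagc
Hoxb1: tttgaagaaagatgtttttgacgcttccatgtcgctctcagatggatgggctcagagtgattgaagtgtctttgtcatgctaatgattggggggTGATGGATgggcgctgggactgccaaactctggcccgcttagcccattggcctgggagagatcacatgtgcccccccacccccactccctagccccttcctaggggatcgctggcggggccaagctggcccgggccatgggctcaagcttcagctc
HOXA2: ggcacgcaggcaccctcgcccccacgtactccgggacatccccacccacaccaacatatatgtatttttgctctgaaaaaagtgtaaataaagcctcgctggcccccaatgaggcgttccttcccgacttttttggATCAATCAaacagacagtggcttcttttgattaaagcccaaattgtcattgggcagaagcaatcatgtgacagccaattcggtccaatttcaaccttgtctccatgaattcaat
Hoxa2: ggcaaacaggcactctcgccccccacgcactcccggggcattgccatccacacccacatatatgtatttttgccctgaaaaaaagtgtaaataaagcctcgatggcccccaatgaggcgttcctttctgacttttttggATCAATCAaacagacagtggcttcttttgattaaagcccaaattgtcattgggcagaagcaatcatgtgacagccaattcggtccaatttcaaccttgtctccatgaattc

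Counted from the gene start, the HOXB1 motif spanned positions −125 to −118 in human and −156 to −149 in mouse, with the same letters, inside a run of 26 bases that both species share. The HOXA2 motif lay on the opposite strand at −114 to −107 in human and at −111 to −104 in mouse, inside a shared run of 122 bases. RefSeq windows of 300 bases, 250 before and 50 after a start, were at hand for 5 of the 7 human genes, HOXB1, HOXD1, HOXA2, HOXA3 and HOXD3. These 5 genes had 11 windows in all. TGATNNAT was in 2 of the 11 windows, those of HOXB1 and HOXA2, and in 7.4% of all 35116 windows. The RA receptor half-site AGGTCA was in 0 of the 11 windows and in 13.8% of all windows. DR5, a direct repeat of 2 degenerate half-sites spaced by 5 bases, searched like the others on both strands, was in 0 of the 11 windows and in 0.0883% of all windows. A match is a description of letters, and these short windows do not cover the enhancers that lie further away.

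The 10 human libraries held between 3681739 and 38771193 counts each, and the 8 mouse libraries between 6487157 and 20052505. Levels are given in CPM, which are counts scaled to the TMM-adjusted library size. Levels of different genes are compared in TPM, in which counts are also divided by the exon length in the deposited table. A change was called where the quasi-likelihood test of edgeR gave a p under 0.05 after Benjamini-Hochberg adjustment over all genes tested and the absolute log2 fold change was above 1. The tests ran over 18300 human and 15003 mouse genes and included 7 of 7 human members and 6 of 7 mouse members, since Hoxd3 had too few counts. A library with 0 counts allows up to 3, and fold changes against a group with 0 counts are given as lower bounds on that basis, which covers counting error only.

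In human cells, all 7 genes had at most 1 count in any primed ESC library and were present in RA-gastruloids. HOXB1, which sets the identity of rhombomere 4 of the hindbrain, had 0 and 0 CPM in the replicates of primed RUES2_GLR ESCs, 238 and 246 CPM in the early and 152 and 130 CPM in the late RA-gastruloid libraries. HOXD1, its group 1 paralog, had 0 and 0 CPM in primed RUES2_GLR ESCs, 19.4 and 22.7 CPM in the early and 11.4 and 7.24 CPM in the late RA-gastruloid libraries. Both group 1 genes were thus highest in early RA-gastruloids, with no overlap between early and late replicates.

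HOXA2, which patterns the second pharyngeal arch, had 0.0819 and 0 CPM in primed RUES2_GLR ESCs, 15.2 and 17.4 CPM in the early and 31.2 and 35.2 CPM in the late RA-gastruloid libraries. HOXB2, a group 2 gene that acts downstream of EGR2 in the hindbrain, had 0 and 0 CPM in primed RUES2_GLR ESCs, 107 and 108 CPM in the early and 98.1 and 87.2 CPM in the late RA-gastruloid libraries. The group 2 genes differed in their course, HOXA2 being higher late and HOXB2 slightly lower late, in both cases with replicates that did not overlap.

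HOXA3, needed for thymus and parathyroid formation, had 0 and 0 CPM in primed RUES2_GLR ESCs, 20.9 and 26.0 CPM in the early and 52.5 and 47.7 CPM in the late RA-gastruloid libraries. HOXB3 had 0 and 0 CPM, 66.6 and 71.9 CPM, and 117 and 112 CPM in the same order. HOXD3, which shapes the first neck vertebrae, had 0 and 0 CPM, 20.1 and 22.7 CPM, and 54.4 and 43.9 CPM. For all 3 group 3 genes, every late library lay above every early library.

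**Figure D1:**
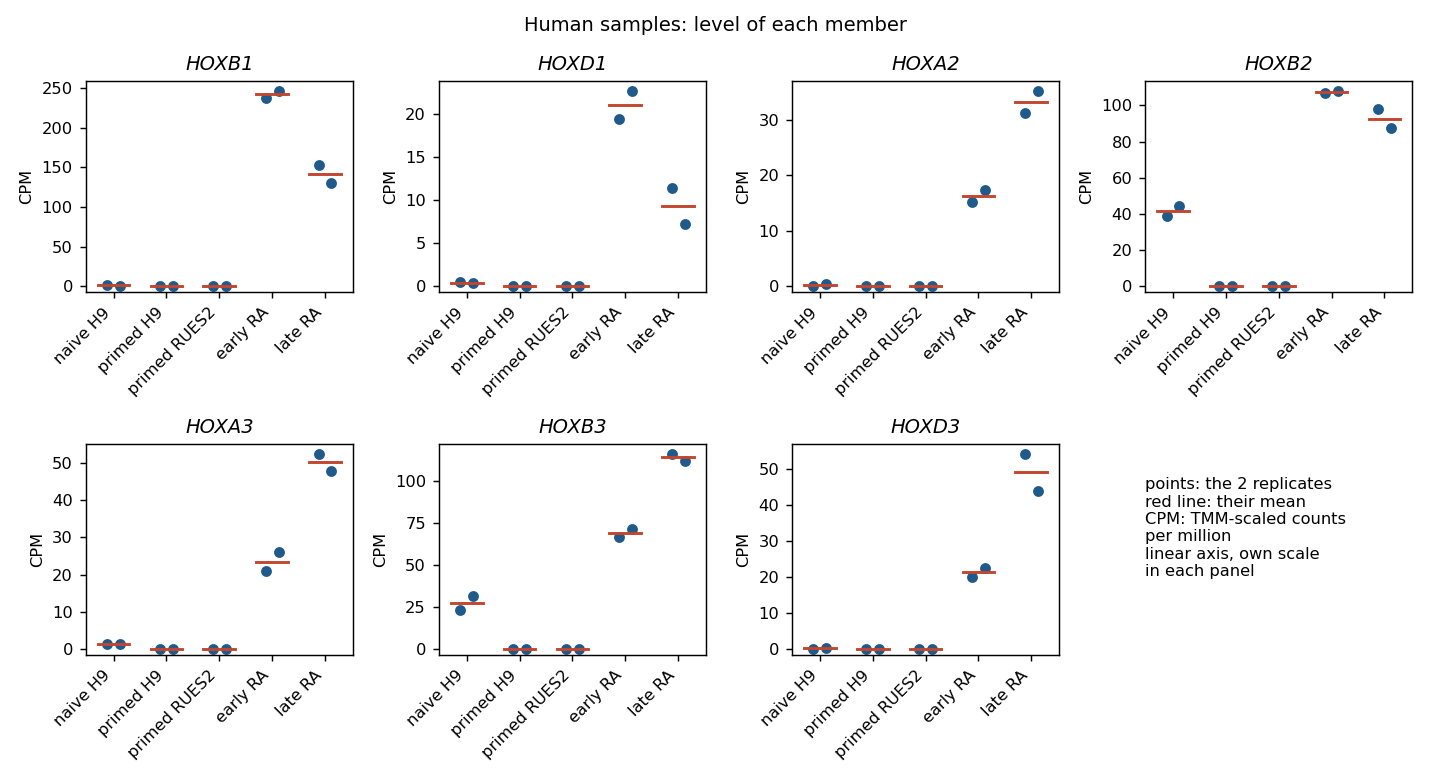
Level of each member in CPM (y axis, linear, with its own scale in each panel) in the 5 human groups, with a point for each of the 2 replicates and a red line at their mean. The early RA-gastruloids hold the highest HOXB1, HOXD1 and HOXB2 levels, the late RA-gastruloids the highest levels of the other 4 genes, and naïve H9 ESCs hold HOXB2 and HOXB3.

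From primed RUES2_GLR ESCs to early RA-gastruloids, 7 of 7 members were called higher, against 12% of all genes tested. With at most 1 count in any primed RUES2_GLR library, a member could be called higher but not lower, also in the late comparison below. HOXB1 was at least 403-fold higher, HOXB2 at least 179-fold, HOXB3 at least 115-fold, HOXA3 at least 39.0-fold, HOXD3 at least 35.6-fold and HOXD1 at least 35.1-fold. HOXA2 had a single count in the primed group, and its ratio was 249-fold with an exact counting interval from 44.4 to 9879. The adjusted p of the 7 genes ran from 2.97e-22 for HOXB1 to 3.33e-14 for HOXD1 in edgeR's quasi-likelihood test. Late RA-gastruloids also had 7 of 7 members called higher than primed RUES2_GLR ESCs, against 17.3% of all genes, with lower bounds from 15.5-fold for HOXD1 to 235-fold for HOXB1 and a ratio of 499 (exact counting interval 89.3 to 19721) for HOXA2.

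Cell type markers changed in this step too, and their part in the HOX levels was not tested. Of the caudal progenitor markers (TBXT, MIXL1, TBX6 and CYP26A1) 3 of 4 were called higher and 1 lower. Their summed level was 218 to 265 CPM in primed RUES2_GLR ESCs and 543 to 575 CPM in early RA-gastruloids. Most of the primed sum was CYP26A1, which fell in this step as given below, so that sum says little of the other markers. All 3 pluripotent markers and all 4 tested primed markers were called lower.

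Other genes of the retinoid and HOX network moved in the same step. Of 20 RA pathway genes, 10 were called higher and 5 lower in early RA-gastruloids, with a median log2 fold change of 1.18 against 0.08 over all genes tested. CRABP2, an intracellular RA carrier, stood at 1220 ± 22.3 CPM (SD, n = 2) in early RA-gastruloids and 159 ± 7.34 CPM in primed RUES2_GLR ESCs. CYP26A1, which degrades RA, was lower, at 12.1 ± 0.694 CPM in early RA-gastruloids against 238 ± 33.7 CPM in primed RUES2_GLR ESCs, a log2 fold change of −4.29. Of the 3 CDX genes, which regulate central HOX genes, CDX1 and CDX2 were called higher, with 246 ± 3.83 and 257 ± 4.98 CPM in early RA-gastruloids and 0 counts in primed RUES2_GLR ESCs. The TALE genes had 4 called higher and 1 lower of 9. Among HOX genes outside these paralog groups, 10 of 10 in groups 4 to 6, 9 of 9 in groups 7 to 9 and 2 of 9 tested in groups 10 to 13 were called higher.

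Between early and late RA-gastruloids, 1 of 2 group 1 members was called lower, and 1 of 2 group 2 and 2 of 3 group 3 members were called higher. HOXD1 was called lower, with a log2 fold change of −1.12 (SE 0.19, adjusted p = 1.33e-05, edgeR's quasi-likelihood test). Called higher were HOXD3 (1.21, SE 0.15, adjusted p = 4.6e-08), HOXA3 (1.10, SE 0.14, adjusted p = 1.94e-07) and HOXA2 (1.02, SE 0.16, adjusted p = 3.24e-06) in the same edgeR test. These 3 of 7 higher and 1 of 7 lower stand beside 11.8% of all genes called higher and 13.2% called lower, and the members' median log2 fold change was 0.72 against 0 over all genes tested.

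The other members did not reach the fold threshold. HOXB1 had a log2 fold change of −0.77 (SE 0.13) with an adjusted p of 6.56e-06, and HOXB3 had 0.72 (SE 0.13) with an adjusted p of 1.97e-05 in edgeR's quasi-likelihood test. HOXB2 had −0.21 (SE 0.12, adjusted p = 0.134 in the same edgeR test). The count of 4 called members rested on values near the threshold, and was 2 without replicate 1 of early or without replicate 2 of late RA-gastruloids. In the former case HOXA2 (0.93) and HOXA3 (0.95) fell under a log2 fold change of 1, in the latter HOXA2 (0.96) and HOXD1 (−0.87) did, and all 4 members kept their direction.

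The median log2 fold change from early to late was −0.95 for the 2 group 1 members, 0.41 for the 2 group 2 members and 1.10 for the 3 group 3 members. It was 1.11 over the 10 tested genes of groups 4 to 6 (range 0.40 to 3.10) and 1.53 over the 9 of groups 7 to 9 (range 0.66 to 5.52). The 3 group 3 members thus lay within the range of the more posterior genes, and HOXB1, HOXD1 and HOXB2 lay below it. These medians are descriptions, and the difference between paralog groups was not tested.

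**Figure D2:**
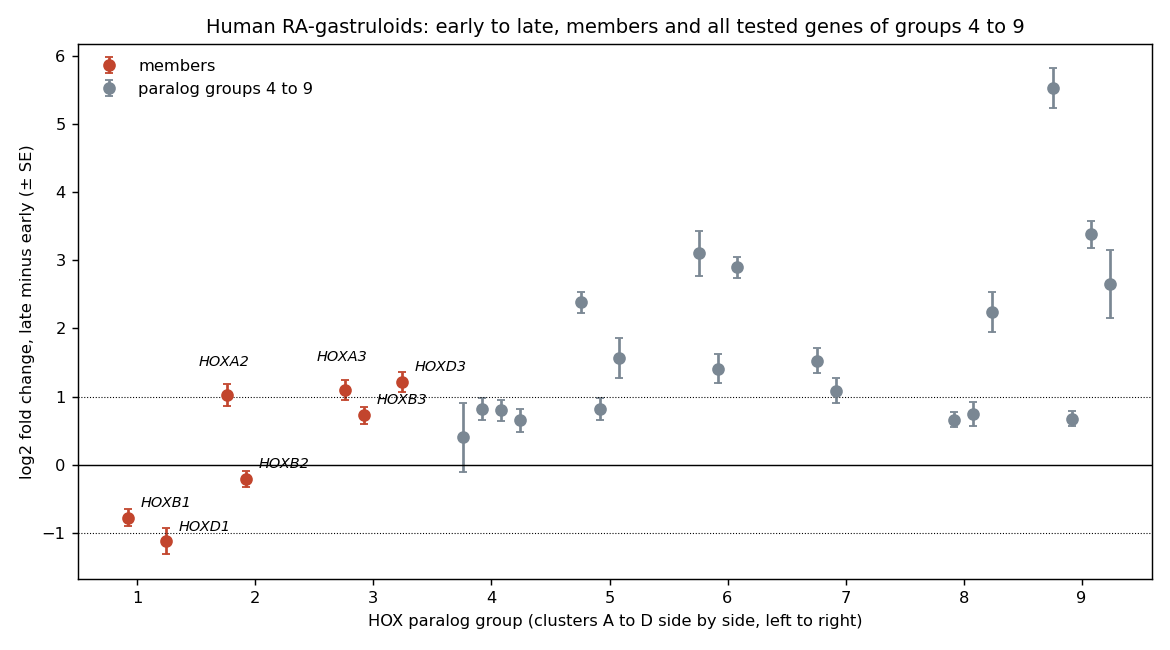
Log2 fold change from early to late RA-gastruloids (y axis, points with standard error from the edgeR fit, n = 2 per stage) against HOX paralog group (x axis) for the 7 members in red and all tested genes of groups 4 to 9 in grey. Dotted lines mark a log2 fold change of 1 in either direction, and HOXD1, HOXB1 and HOXB2 are the points below 0.

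The cofactor and RA genes changed too between these stages. Of the 9 TALE genes, 3 were called higher and 0 lower. MEIS1 rose from 4.97 ± 0.315 to 105 ± 3.23 CPM and MEIS2 from 83.4 ± 2.74 to 267 ± 0.69 CPM (SD, n = 2). RARB, an RA receptor whose own gene is induced by RA, rose from 2.46 ± 0.0855 to 26.9 ± 0.737 CPM. ALDH1A2, which makes RA, rose from 35.6 ± 0.433 to 117 ± 1.44 CPM. All 3 CDX genes were called lower, CDX2 from 257 ± 4.98 to 24.7 ± 0.184 CPM.

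Of the hindbrain regulators, 5 of 14 tested were called higher and 5 lower between early and late RA-gastruloids. EGR2, the activator of HOXB2 in the hindbrain, stood at 2.503 ± 0.40 CPM early and 2.72 ± 0.677 CPM late (adjusted p = 0.662 in edgeR's quasi-likelihood test). GBX2 was called lower, from 28.5 ± 0.54 to 10.9 ± 0.629 CPM, and OTX2, a head gene kept apart from HOX territory, from 2.45 ± 0.611 to 0.247 ± 0.0616 CPM.

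Cell type markers differed between the stages as well. The summed level of 4 caudal progenitor markers (TBXT, MIXL1, TBX6 and CYP26A1) was 543 to 575 CPM at the early and 35.7 to 54.3 CPM at the late stage. That of 3 neural markers (PAX6, SOX1 and SOX3) was 16.8 to 18.6 CPM early and 178 to 189 CPM late, and that of 4 paraxial mesoderm markers 6.16 to 7.78 and 123 to 161 CPM. Among them 1 of 4 caudal progenitor genes was called higher and 3 lower, while 3 of 3 neural genes and 3 of 3 tested paraxial mesoderm genes were called higher. Their part in the course of the HOX genes was not tested.

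Per length, HOXB1 and HOXB2 were the leading members in RA-gastruloids. In early RA-gastruloids the order of mean TPM was HOXB1 (380 ± 10.4), HOXB2 (170.5 ± 1.98), HOXD1 (43.6 ± 4.95), HOXB3 (36.4 ± 2.06), HOXA2 (27.2 ± 2.65), HOXD3 (22.6 ± 2.02) and HOXA3 (21.2 ± 3.38), each ± SD with n = 2. The replicates of HOXD3 and HOXA3 overlapped, and those of all other neighbours did not. In late RA-gastruloids the order was HOXB1 (228 ± 20.2), HOXB2 (151 ± 9.24), HOXB3 (61.7 ± 0.452), HOXA2 (57.1 ± 6.05), HOXD3 (53.3 ± 6.89), HOXA3 (46.6 ± 2.11) and HOXD1 (19.7 ± 5.82). HOXA2 and HOXD3 overlapped in their replicates.

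The summed level of the 7 members was 501 ± 20.05 CPM at the early and 490 ± 37.6 CPM at the late stage, a difference smaller than the spread. In TPM the sum was 682 and 721 in the early and 645 and 590 in the late libraries, which did not overlap. HOXB1 made up 54.2% of the members' summed TPM early and 36.9% late. The 3 group 3 genes made up 5.18% (HOXB3), 3.03% (HOXA3) and 3.22% (HOXD3) early and 9.996%, 7.55% and 8.63% late. The share of the members in the summed TPM of all 39 HOX genes was 28.6% early and 16.8% late.

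**Figure D3:**
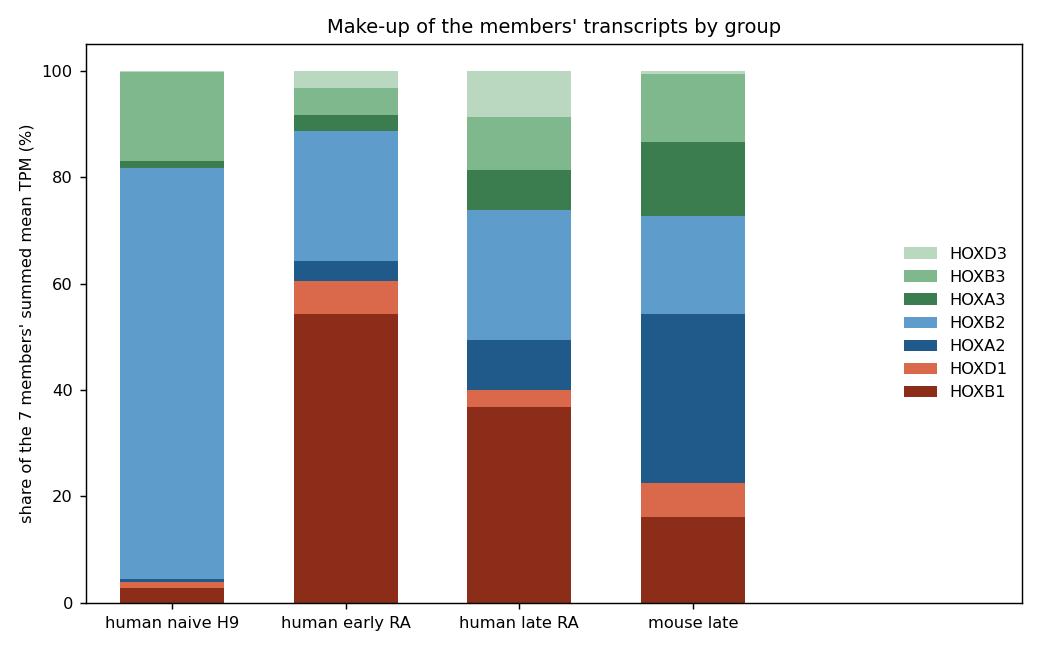
Share of each member in the summed mean TPM of the 7 members (y axis, %, stacked bars adding to 100) in naïve H9 ESCs, early and late RA-gastruloids and late mouse gastruloids. HOXB2 fills 77.2% of the bar of naïve H9 ESCs, HOXB1 54.2% of that of early RA-gastruloids, and Hoxa2 with 31.7% is the largest part of the mouse bar.

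Naïve H9 ESCs also held HOX transcripts of these groups, which primed H9 ESCs did not. HOXB2 had 38.9 and 44.4 CPM in naïve H9 ESCs and 0 and 0 CPM in primed H9 ESCs. HOXB3 had 23.2 and 31.4 CPM in naïve H9 ESCs and 0 and 0 CPM in primed H9 ESCs. HOXB2 was at least 296-fold and HOXB3 at least 194-fold lower in primed than in naïve H9 ESCs, with adjusted p of 1.23e-22 and 9.25e-21 in edgeR's quasi-likelihood test.

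The other 5 members had between 3 and 40 counts in each naïve H9 library. HOXB1 had 40 and 17 counts (2.09 and 0.975 CPM) and HOXA3 26 and 22 counts (1.36 and 1.26 CPM). HOXD1 had 9 and 7 counts, HOXA2 3 and 7, and HOXD3 3 and 5. In primed H9 ESCs HOXB1 had 1 count and HOXD3 1 count, and the other members had 0. All 7 were called lower in primed than in naïve H9 ESCs, against 22.3% of all genes tested, although HOXD3 had an adjusted p of 0.058 without replicate 2 of naïve H9 ESCs. With so few primed counts a member could be called lower but not higher. Lower bounds were 9.32-fold for HOXA3, 3.10-fold for HOXD1 and 1.99-fold for HOXA2. The lower level was not particular to the members. Also called lower were 9 of 10 HOX genes of groups 4 to 6 and 9 of 9 of groups 7 to 9. In groups 10 to 13 it was 9 of 9 tested genes.

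Within the HOXB cluster the naïve H9 profile was uneven. The mean level per length was 52.1 TPM for HOXB2, 11.3 TPM for HOXB3 and 1.90 TPM for HOXB1. HOXB-AS3, an antisense transcript that overlaps HOXB3, had 0 and 1 counts in naïve H9 ESCs, where HOXB3 had 443 and 548 counts. HOXB-AS1, which is also antisense to HOXB3 and shares more exon bases with it, had 28 and 23 counts there, and 28 and 12 in the late RA-gastruloid libraries. In early RA-gastruloids HOXB-AS3 had 1671 and 1597 counts and HOXB3 693 and 712. The 7 members made up 35.7% of the summed HOX TPM of naïve H9 ESCs, and genes of groups 10 to 13 made up 32.2%.

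Fibroblast markers also differed between these groups. Of 10 such genes, 9 had at least 1 CPM in both naïve H9 libraries, 7 in both primed H9 libraries and 6 in both primed RUES2_GLR libraries. Their summed level was 812 to 830 CPM in naïve H9, 550 to 573 CPM in primed H9 and 1620 to 1881 CPM in primed RUES2_GLR ESCs. DCN had 154 and 108 counts and LUM 30 and 37 counts in naïve H9 ESCs, and both were at 0 in both primed groups. In the whole list 4 of 10 genes were called lower and 2 higher in primed than in naïve H9 ESCs. Over all genes tested, 22.3% were called lower and 25.5% higher. PDGFRB was higher in primed cells, with 0.679 and 1.15 CPM in naïve and 32.6 and 31.5 CPM in primed H9 ESCs. COL3A1 had 181 and 172 CPM in naïve H9 ESCs and 0.0699 and 0.0477 CPM in primed H9 ESCs. The part of feeder or fibroblast RNA in the HOXB2 and HOXB3 levels was not tested.

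Between the primed lines no member was called. Primed H9 and primed RUES2_GLR ESCs had 2 and 1 reads in all over the 7 genes, HOXB1 and HOXD3 in primed H9 and HOXA2 in primed RUES2_GLR ESCs. edgeR's quasi-likelihood test gave 0 of 7 members, 0 at an unadjusted p under 0.05, and DESeq2 gave 0. With the counts this low a difference was not detectable at this depth.

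**Figure D4:**
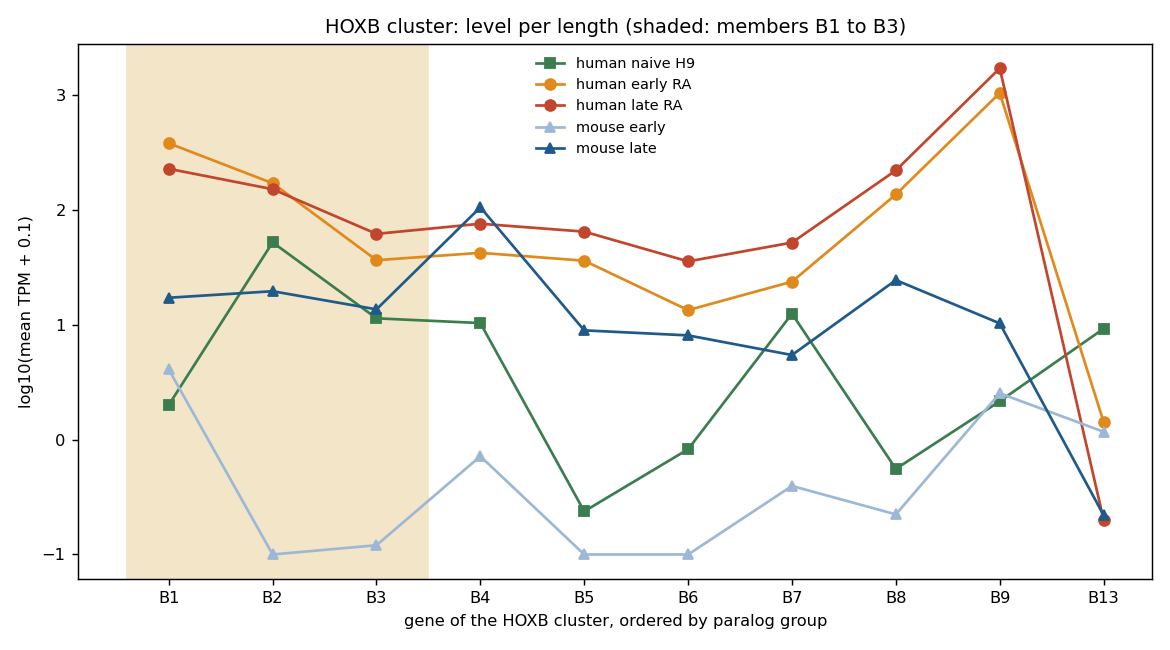
Mean level per length, as log10 of TPM plus 0.1 (y axis), of the genes of the HOXB cluster ordered by paralog group (x axis), with 1 line per group of samples (n = 2 each) and B1 to B3 shaded. The RA-gastruloid lines start at B1 and decline to B3, the naïve H9 line is highest at B2, and among the shaded genes the early mouse line is above 0 on this axis at B1 alone.

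In mouse, all 7 genes had their highest levels in late gastruloids. Hoxb1 had 0 and 0 CPM in naïve ESCs, 0.148 and 0.395 CPM in EpiLCs, 2.77 and 2.55 CPM in early and 10.6 and 11.5 CPM in late gastruloids. Hoxd1 had 0 and 0.0897 CPM in naïve ESCs, 1.03 and 0.855 CPM in EpiLCs, 0.444 and 0.352 CPM in early and 3.85 and 3.13 CPM in late gastruloids. Hoxb1 was higher in each group than in the one before, and the early libraries of Hoxd1 lay below those of EpiLCs.

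Hoxa2 and Hoxb2 had 0 counts in all 6 libraries of naïve ESCs, EpiLCs and early gastruloids. In late gastruloids Hoxa2 had 16.1 and 17.0 CPM and Hoxb2 20.7 and 17.1 CPM. Of the group 3 genes, Hoxa3 had at most 2 counts and Hoxb3 at most 1 in any earlier library, against 23.7 and 25.6 CPM and 14.6 and 17.4 CPM late. Hoxd3 had 0 counts in the earlier groups and 5 and 7 counts in late gastruloids. Every member was higher in both late libraries than in all earlier mouse libraries.

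**Figure D5:**
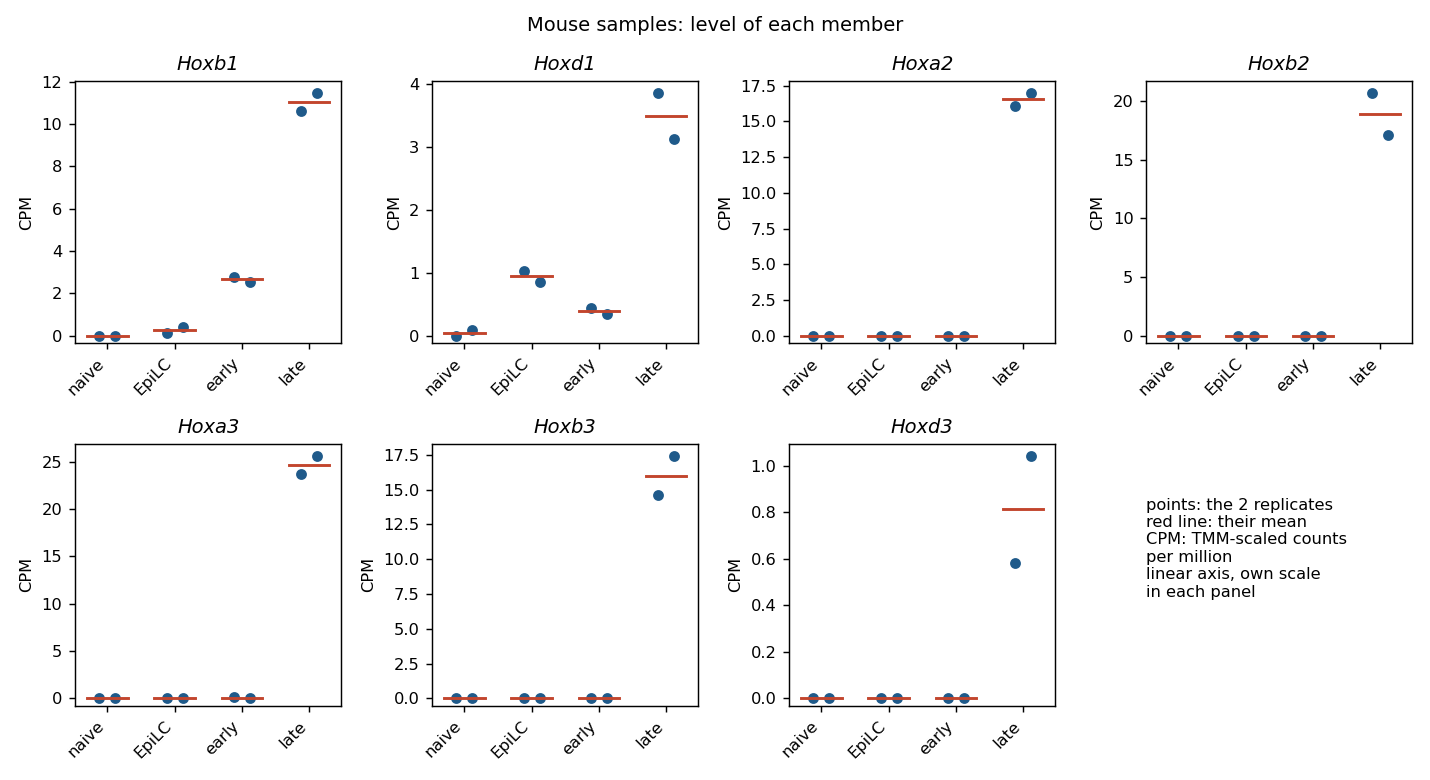
Level of each mouse member in CPM (y axis, linear, with its own scale in each panel) in the 4 mouse groups, with a point for each of the 2 replicates and a red line at their mean. Late gastruloids are highest in all 7 panels, Hoxb1 and Hoxd1 alone show levels above 0.1 CPM in a library before the late stage, and Hoxd3 reaches 1.04 CPM at most.

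From naïve ESCs to EpiLCs, Hoxb1 and Hoxd1 were called higher, 2 of 6 tested members against 17.7% of all genes. These calls rest on few reads, 7 in all for Hoxb1 in EpiLCs, and 20 for Hoxd1 against 1 in naïve ESCs, a ratio of 16.7 with an exact counting interval from 2.67 to 691. The Hoxb1 call was lost without replicate 2 of naïve ESCs (adjusted p = 0.0972) or replicate 2 of EpiLCs (adjusted p = 0.191) in edgeR's quasi-likelihood test. From EpiLCs to early gastruloids, Hoxb1 alone was called higher, 1 of 6 members against 11.7% of all genes, with a log2 fold change of 3.03 (SE 0.47, adjusted p = 1.32e-07 in the same edgeR test). Hoxd1 had −1.14 (SE 0.57, adjusted p = 0.0784).

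From early to late gastruloids, 6 of 6 tested members were called higher, against 20.1% of all genes. Hoxa2, Hoxb2, Hoxa3 and Hoxb3 had at most 2 counts in any earlier library and passed the count filter through the late group. Here and against EpiLCs, these genes could be called higher but not lower, so the count only describes them. Hoxb1 had a log2 fold change of 2.03 (SE 0.24, adjusted p = 3.04e-11) and Hoxd1 3.07 (SE 0.46, adjusted p = 2.87e-08) in edgeR's quasi-likelihood test. Hoxb2 was at least 91.7-fold and Hoxa2 at least 80.3-fold higher. Hoxa3 and Hoxb3 had 2 and 1 reads early, and their ratios were 388 (exact counting interval 107 to 3215) and 501 (89.0 to 19859). Compared with EpiLCs, late gastruloids also had 6 of 6 members called higher, against 22.5% of all genes, with log2 fold changes of 5.07 for Hoxb1 and 1.93 for Hoxd1. Hoxd3 was not tested and was at least 3.95-fold higher in late than in early gastruloids.

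Late mouse gastruloids held these genes in another order than RA-gastruloids. Mean TPM was 33.5 ± 0.68 for Hoxa2, 19.5 ± 2.90 for Hoxb2, 17.1 ± 0.637 for Hoxb1, 14.7 ± 0.563 for Hoxa3, 13.5 ± 1.47 for Hoxb3, 6.74 ± 1.10 for Hoxd1 and 0.694 ± 0.266 for Hoxd3 (SD, n = 2). The replicates of Hoxb2 and Hoxb1 overlapped, as did those of Hoxa3 and Hoxb3. The order depends on the exon length used, since 53.1% of the exon bases of Hoxb3, 27.3% of Hoxb2, 25.4% of Hoxa3 and 62.9% of Hoxd3 are shared with other genes, and reads there are not counted under default settings. Per exon base not shared, Hoxb3 stood at 28.8 TPM, Hoxb2 at 26.8, Hoxa3 at 19.7, Hoxb1 at 17.1 and Hoxd3 at 1.87, and Hoxa2 remained first at 33.5. In human the shared portion was between 0 and 17.3% of exon bases.

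The mouse RA and cofactor genes changed in the same step from early to late. Of 18 tested RA pathway genes, 13 were called higher and 2 lower, and of 9 TALE genes 7 were called higher and 0 lower. RARB's mouse counterpart Rarb had 0 counts early and 17.4 ± 0.396 CPM late (SD, n = 2), and Aldh1a2 rose from 4.17 ± 0.941 to 145 ± 9.38 CPM. Meis1 rose from 0.368 ± 0.101 to 106 ± 4.02 CPM and Meis2 from 6.54 ± 0.944 to 379 ± 12.5 CPM. Of 13 tested hindbrain regulators 8 were called higher and 3 lower, and Egr2 rose from 1.18 ± 0.0674 to 7.35 ± 1.33 CPM. In the same step 8 of 8 tested HOX genes of groups 4 to 6 and 9 of 9 of groups 7 to 9 were called higher. Cell type markers moved as well, with 10 of 10 fibroblast, 3 of 3 cardiac and 2 of 2 endoderm markers called higher. Of 3 neural markers 2 were called higher and 0 lower, and of 2 tested paraxial mesoderm markers 1 higher and 1 lower. Of 3 tested caudal progenitor markers 1 was called higher and 2 lower, and the 1 tested neural crest marker was called lower. The part of these markers in the HOX levels was not tested.

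The change from early to late differed between the species. In a fit of all 18 samples over 14008 genes matched by symbol, 7 of 7 members had a lower late-to-early change in human than in mouse, against 18.7% of all genes called in that direction. The same direction was called for 7 of 10 HOX genes of groups 4 to 6 and 8 of 9 of groups 7 to 9. It was also called for 3 of 9 tested HOX genes of groups 10 to 13. Of 9 TALE genes, 7 were called in that direction and 1 in the other. The human change minus the mouse change was −2.65 on the log2 scale for HOXB1 (SE 0.25, adjusted p = 2.76e-11) and −4.05 for HOXD1 (SE 0.47, adjusted p = 3.85e-09) in edgeR's quasi-likelihood test. For the other 5 members the early mouse group had 0 to 2 reads, so the fitted size of the difference is no measure. With so few reads their mouse change could only be a rise. The count of 7 of 7 therefore describes the members and is no test for these 5. In human HOXB1 and HOXD1 were lower late than early, with HOXB1 short of the fold threshold, and in mouse both rose.

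At the early stage human and mouse levels stood far apart. HOXB1 had 242 ± 5.98 CPM in early RA-gastruloids and Hoxb1 2.66 ± 0.152 CPM in early mouse gastruloids (SD, n = 2). At the late stage the same genes had 141 ± 15.6 and 11.05 ± 0.596 CPM. The members' sum was 501 ± 20.05 CPM early and 490 ± 37.6 CPM late in human, and 3.13 ± 0.323 CPM early and 91.5 ± 1.88 CPM late in mouse. Species, line, protocol, added RA and sampling time cannot be told apart in these comparisons.

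The genes whose pattern was most like each member were named by the highest Pearson r of log2 CPM, over the 10 human or 8 mouse samples, among 17555 human and 14942 mouse genes whose mean reached 1 CPM in some group. For HOXB1 these were HOTAIRM1, TERF2IP and HOXD1, and for HOXD1 they were TERF2IP, HOTAIRM1 and HOXB1. HOXB2 was nearest to HOXB3, HOXB7 and HOXB4, and HOXB3 to HOXB7, HOXB4 and HOXB2. HOXA2 was nearest to HOXD3, HOXA-AS2 and HOXD4, HOXA3 to FZD10-AS1, HOXA7 and HOXC8, and HOXD3 to HOXB8, LINC02381 and HOXB5. All these r values lay between 0.9899 and 0.9984. The samples share the same few groups, so that genes with a like contrast between groups score alike.

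In mouse, Hoxb1 was nearest to Slit3, Fam199x and Sphkap, and Hoxd1 to Rtl1, Pgls and Neto2. Hoxa3 was nearest to Grem1, Tnks and Cdh5, and Hoxb3 to Cdh5, Samd3 and Clec1b. Hoxa2 was nearest to Vtn, Mgp and Gm56862, and Hoxb2 to Gm7162, Pcdhgb1 and Foxf2. Hoxa2 and Hoxb2 had reads in 2 of the 8 samples, so their nearest genes are those that were present in late gastruloids alone.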

How the data were processed

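RNA-seq of 10 human and 8 mouse samples was used, in 9 groups of 2 replicates taken from the sample labels. The submitters' processing notes name Trimmomatic 0.39 for trimming, STAR as aligner, the builds GRCh38 and GRCm39, and featureCounts, which the authors ran at its default settings on polyadenylated RNA libraries. What they deposited are raw whole-number counts for each gene. Default counting leaves out reads in bases shared by overlapping genes and does not use strand. The annotation release is not given in the sources used here. Symbols and coordinates came from GENCODE releases 44 (44876 of 44910 genes matched) and M39 (29486 of 29720).

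The members and gene lists were chosen with earlier results of these data known. Counts were normalized by TMM, filtered with filterByExpr and tested with glmQLFit and glmQLFTest (edgeR 4.0.16, R 4.3.3) in 1 fit per species, and in 1 fit of both for the species difference. Thresholds were an adjusted p of 0.05 and an absolute log2 fold change of 1. DESeq2 1.42.0 was an alternative, as were other size factors, no filter, the compared groups alone, a replicate block and leaving out each replicate. All 7 members are named, with further genes taken from fixed lists of cofactors, RA genes and hindbrain regulators. DCN, LUM, COL3A1 and HOXB-AS3 were singled out after their values were seen. The test was checked on simulated data. Lower bounds take 3 counts per library, averaged over the group in CPM. Human promoter windows came from RefSeq (GRCh38.p14). Some genes of these lists are not reported here.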

Additional observations from a re-analysis of the deposited data

Results flagged for a closer look

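HOXB1 and HOXD1 are listed because their change from early to late gastruloids differed between the species in a test of the difference itself. The human change minus the mouse change was −2.65 for HOXB1 and −4.05 for HOXD1 on the log2 scale. The late minus early difference in mean CPM was −101 in human and 8.39 in mouse for HOXB1, and −11.7 in human and 3.09 in mouse for HOXD1. HOXB2 is listed with them because both human late libraries lay below both early ones, a mean difference of −14.6 CPM that missed the threshold of the human test, while both mouse late libraries lay above, by 18.9 CPM on average. Its early mouse group had 0 counts, so the fitted size of its species difference is no measure.

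Directions were also opposite in earlier steps. From naïve to primed cells, HOXB1 changed by −1.5 CPM in human and by 0.271 CPM in mouse, and HOXD1 by −0.436 CPM in human and by 0.9 CPM in mouse, and these differences between the species were not tested. Early gastruloids differed from primed cells in HOXD1 by 21.1 CPM in human and by −0.547 CPM in mouse. This species difference was called in edgeR's quasi-likelihood test (adjusted p = 2.06e-10). The human primed group had 0 counts, so its fitted size is no measure. The mouse primed cells were EpiLCs, while mouse gastruloids were made from naïve ESCs. Hoxd1 had 0.0449 CPM in naïve ESCs and 0.398 CPM in early gastruloids, so the mouse direction was opposite against EpiLCs alone. The mouse values of these steps rest on 1 to 20 reads in a group, apart from groups with 0.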

How the results depend on the processing

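Among settings other than leaving out a library, the number of members called stayed within 1.5 times the reported number in 78 of 81 cases. The exceptions were naïve against primed H9 ESCs, with 4 members called when the compared groups alone were fitted, since 4 of the 7 then passed the filter, and naïve ESCs against EpiLCs in mouse, with 0 called since 0 members then passed it. The third was the species difference from primed cells to early gastruloids, with 3 called by edgeR and 7 by DESeq2. In it groups without counts give 4 members very large edgeR standard errors. Of its calls, the report uses only that of HOXD1, among the flagged results. Leaving out 1 library gave 2 to 3 members in that species difference, 2 to 4 from early to late RA-gastruloids, 1 to 2 from naïve ESCs to EpiLCs and 6 to 7 from naïve to primed H9 ESCs. The fitted species difference of HOXA2 from primed cells to late gastruloids changed sign without replicate 1 of primed RUES2_GLR ESCs, with values from −2.26 to 1.25 when 1 library was left out, and it rests on 1 read. From early to late RA-gastruloids HOXA2 lay just under the threshold with DESeq2 size factors and with the compared groups alone, both at 1.00 after rounding. With an adjusted p alone, 6 members changed in that step. The mouse Hoxb2 difference between late gastruloids and EpiLCs had an adjusted p of 0.0515 with DESeq2.

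By CPM in place of TPM, 2 members kept their rank in early RA-gastruloids, 3 in late RA-gastruloids and 3 in late mouse gastruloids. Per exon base not shared, a setting chosen after seeing the data, 4 kept it in late mouse gastruloids. With Spearman in place of Pearson, 3 of 21 nearest genes were named again in human and 2 of 18 in mouse. Between the primed lines, all genes tested had a median log2 fold change of −0.12. The replicate numbers did not pair the samples, since the replicate differences of compared groups correlated between −0.0892 and 0.0684. With a replicate block the number of members called was 4 from early to late RA-gastruloids, and it was as reported in every other comparison. Depth limits statements on HOXD1, HOXD3 and HOXA2 in naïve H9 ESCs and on every mouse member before the late stage, apart from Hoxb1 in early gastruloids.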
